A study of Homo sapiens with 6 samples.

Results

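The collagen genes were taken as every gene of the deposited tables whose symbol is COL, a number, A and a number, with nothing after it. This gave 43 of 42307 genes, so antisense RNAs and pseudogenes with longer symbols were left out. The tables come from RNA sequencing of U251, an established human glioblastoma cell line that the labels give as wild type (WT). Cells of all libraries carried a plasmid for 3 days (Day 3) at 1 ug per well: a negative control plasmid in 3 libraries (NC 1 to 3, here control) and a STING overexpression plasmid in the other 3 (STING-OE 1 to 3, here STING). STING relays the alarm when DNA is found in the cytosol. The sources used here give neither the plasmid's promoter nor the share of cells that took it up, and all values come from 1 cell line. No label states whether replicates came from separate cultures, so the spread behind every p-value is that between these 6 libraries and may be technical.

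Collagens are the main structural proteins of the extracellular matrix. Chains of a collagen wind around each other into a triple helix, and they can do so because glycine, the smallest amino acid, returns at a fixed spacing in the pattern Gly-X-Y, where X and Y are often proline and hydroxyproline. Fibrillar collagens form the fibrils of connective tissue, type IV collagens form the sheet of basement membranes, and smaller classes link, coat or anchor these structures or sit in the cell membrane. Brain tissue holds little fibrillar collagen outside its vessels and coverings, and collagen in gliomas has been studied as part of the matrix through which the tumour cells move.

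The glycine pattern can be read in the coding sequence, where every glycine codon begins with GG. To show what the genes of the following results share, 54 coding bases are printed for each of 4 of them, from the GENCODE v29 transcripts (GRCh38). They are the first 6 repeats of the longest uninterrupted run of the pattern, with the glycine codons in capitals:
COL18A1: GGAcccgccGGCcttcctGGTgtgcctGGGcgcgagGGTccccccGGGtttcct
COL6A2: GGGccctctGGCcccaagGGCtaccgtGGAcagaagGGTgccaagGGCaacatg
COL17A1: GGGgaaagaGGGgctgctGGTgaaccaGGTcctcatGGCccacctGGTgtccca
COL1A2: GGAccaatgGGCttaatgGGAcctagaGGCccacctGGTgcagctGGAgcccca
The COL18A1 stretch lies within exon 12 of its transcript (chr21:45480796-45480849, plus strand). The COL6A2 stretch spans exons 5 and 6 (chr21:46114038-46115889, plus strand), that of COL17A1 exons 23 and 24 (chr10:104052174-104053040, minus strand) and that of COL1A2 exons 6 and 7 (chr7:94401612-94404600, plus strand). The genes differ in how far the pattern runs on. The longest uninterrupted run holds 339 repeats in COL1A2, 87 in COL6A2, 55 in COL17A1 and 30 in COL18A1. Counting runs of at least 4 repeats, the helix of COL18A1 is broken into 16 runs and that of COL17A1 into 18, whereas COL1A2 has 2. Glycine codons begin with GG and proline codons with CC, and the runs are rich in these bases: over 28 genes their GC content had a median of 64.2% (53.7% to 72.9%), against a median of 59.8% for the whole coding sequences.

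All 43 collagen genes had at least 1 count in some library. Of these, 36 passed the filter on low counts and were tested, and 28 were well counted, with a mean of at least 1 CPM (counts scaled to the library size). The other 8 tested genes lay below 1 CPM, and 7 genes were not tested (COL2A1, COL6A5, COL6A6, COL20A1, COL22A1, COL23A1 and COL26A1). COL9A1 was not analysed here. Library totals ran from 71498790 to 76566375 counts, so that 3 counts, the limit a count of 0 allows, correspond to 0.0392 to 0.042 CPM; this limit covers counting error only. STING1 had 36.2, 37.1 and 31.2 CPM in control libraries 1 to 3 and 56.3, 54.6 and 47.3 CPM in STING libraries 1 to 3, which matches the labels (edgeR adjusted p = 0.00221, log2 fold change 0.60, SE 0.078). Of 12 markers of glioma cells and astrocytes 11 were in the tables, and VIM (2785 CPM), CD44 (942 CPM), EGFR (245 CPM), NES (180 CPM) and SOX2 (120 CPM) were high in the control group. SOX9 was at 86.5 CPM there, SLC1A3 at 58.4 CPM, FABP7 at 9.71 CPM, ALDH1L1 at 1.63 CPM and S100B at 0.25 CPM. GFAP, the filament of astrocytes, fell from 39.0 ± 3.97 to 21.5 ± 3.88 CPM (edgeR adjusted p = 0.033) and was the only one of the 11 to pass the test. Of the 11 markers 10 had a negative estimate (49.8% of all tested genes), 5 of them at an unadjusted p under 0.05 (7.2% of all tested genes). The summed level of the markers was 4385 to 4550 CPM in the control group and 4133 to 4274 CPM in the STING group, mostly VIM. Their part in the collagen results was not tested.

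Levels of different genes are compared per length, with the FPKM values of the deposited tables (counts scaled to gene length and library size). COL1A2, the alpha 2 chain of type I collagen, led by far, with 89.8 ± 5.44 FPKM in the control group (SD, n = 3). COL5A2, a fibrillar chain that helps fibrils start, followed with 26.8 ± 1.44 FPKM, and COL12A1, which coats fibrils, with 19.2 ± 0.629 FPKM. Next came chains of type VI collagen, which forms beaded filaments around cells: COL6A1 with 18.7 ± 0.933 FPKM and COL6A2 with 16.1 ± 0.567 FPKM. COL12A1 and COL6A1 did not differ beyond their spread, whereas the other neighbours in this order of 5 did. Together these 5 genes gave 76.2% of the summed FPKM of all collagens in the control group, and COL1A2 alone gave 40.1% ± 0.688.

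**Figure D1:**
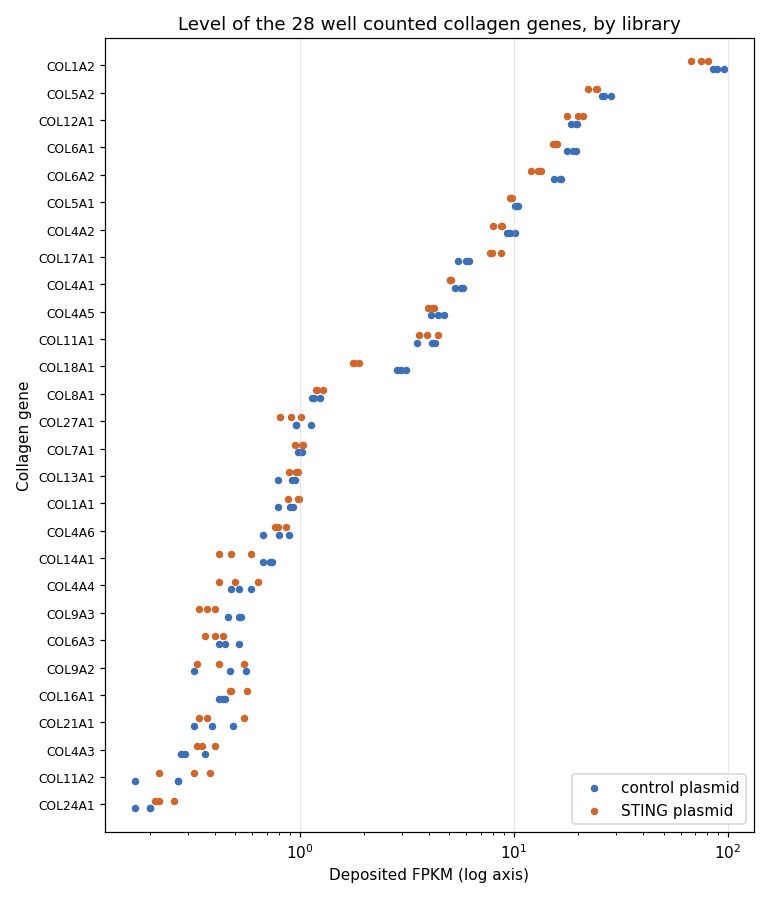
Level of the 28 well counted collagen genes as FPKM on a log axis, 1 point per library (3 control, 3 STING), ordered by the control mean. COL1A2 stands at 89.8 FPKM in the control group, and the lowest of these genes, COL24A1, at 0.19 FPKM.

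Below these came COL5A1 with 10.3 ± 0.167 FPKM and the basement membrane chains COL4A2 with 9.65 ± 0.42 FPKM, COL4A1 with 5.59 ± 0.236 FPKM and COL4A5 with 4.42 ± 0.33 FPKM. COL17A1, a collagen that spans the cell membrane and is known from the attachment of skin epithelium, had 5.88 ± 0.365 FPKM, and COL18A1, a basement membrane collagen whose end can be cut off as endostatin, had 2.99 ± 0.145 FPKM. COL1A1, the partner chain of COL1A2 in type I collagen, had only 0.873 ± 0.0737 FPKM. COL3A1, a fibrillar collagen abundant in fibroblasts, was at 0.01 ± 0.01 FPKM, and COL2A1, the collagen of cartilage, was not tested. The cells thus held COL1A2 transcripts with little COL1A1 and almost no COL3A1.

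With the STING plasmid 1 of the 36 tested collagen genes rose (COL17A1), 3 fell (COL18A1, COL6A2 and COL6A1) and 32 did not pass the test. The same edgeR test called 0.604% of all 21679 tested genes as higher and 0.89% as lower, and among the 14892 tested genes with a mean of at least 1 CPM 0.839% and 1.29%. At an unadjusted p under 0.05, 2 of the 36 collagen genes were higher (COL17A1 and COL3A1) and 11 lower, whereas 7.17% of all tested genes were higher and 7.2% lower (9.52% and 9.39% of the well counted ones), so the 2 are near the background. COL3A1 passed the filter on low counts only through the STING group, so its p-value carries no weight for a rise. The groups did not overlap, with all STING libraries above or all below the control libraries, for 3 of the 28 well counted collagen genes on the higher side and 10 on the lower side. Of all tested genes with a mean of at least 1 CPM, 12.4% were apart on the higher side and 11.4% on the lower side (10.1% and 9.73% of all tested genes), so the 3 are near the background. The median log2 fold change was -0.04 over the 36 tested collagens and -0.06 over the 28 well counted ones, against 0.00 over all tested genes. Of the 28, 17 had a negative estimate, beside 49.0% of all tested genes with a mean of at least 1 CPM.

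COL18A1 showed the largest fall of the well counted collagens. Its level was 28.6, 27.8 and 26.5 CPM in control libraries 1 to 3 and 17.4, 16.0 and 16.4 CPM in STING libraries 1 to 3. The groups were far apart, the lowest control library lying 1.52 times above the highest STING library. The edgeR adjusted p was 0.000118 and the log2 fold change -0.73, with an SE of 0.073 (27.6 ± 1.07 against 16.6 ± 0.721 CPM, SD, n = 3 per group), so that 60.2% of the control level was left. It passed the test without any of the 6 libraries in turn, with adjusted p from 0.000591 to 0.00326 in edgeR. In RNA from a whole culture, fewer cells that express a gene and less RNA per cell cannot be told apart.

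COL6A2 and COL6A1 encode the alpha 2 and alpha 1 chains of type VI collagen, which assemble with a further chain before they leave the cell. COL6A2 had 94.8, 95.7 and 90.5 CPM in the control libraries and 74.9, 68.1 and 76.7 CPM in the STING libraries, and fell by 0.35 on the log2 scale (SE 0.054, edgeR adjusted p = 0.00418). COL6A1 had 112, 110 and 103 CPM in the control libraries and 91.7, 86.0 and 90.0 CPM in the STING libraries, and fell by 0.28 (SE 0.050, edgeR adjusted p = 0.0116). Neither gene's groups overlapped, but the gap between them was small, 1.18 times for COL6A2 and 1.12 times for COL6A1. COL6A2 passed the test without any of the 6 libraries in turn. COL6A1 did not pass without control library 1 (adjusted p = 0.0936), control library 2 (0.0866) or STING library 2 (0.062) in edgeR.

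The remaining beaded filament genes were low. COL6A3, the large alpha 3 chain, was at 9.88 ± 1.14 CPM in the control group and 8.43 ± 0.764 CPM in the STING group (log2 fold change -0.23, edgeR adjusted p = 0.41). Its groups overlapped. Per length it was the scarce partner: COL6A2 exceeded COL6A3 by 35.1 ± 4.79 times in FPKM in the control group and by 32.2 ± 4.41 times in the STING group. COL6A5 was counted only in control library 3, with 3 counts, and COL6A6 had at most 15 counts in a library.

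COL17A1 was the only collagen that passed the test on the higher side. It had 41.2, 47.5 and 45.9 CPM in the control libraries and 58.8, 64.2 and 59.7 CPM in the STING libraries. All STING libraries were above all control libraries, by 1.24 times at the nearest. The log2 fold change was 0.44 with an SE of 0.062 (1.36-fold, edgeR adjusted p = 0.00258), and it passed without any of the 6 libraries in turn. Its edgeR adjusted p ranged from 0.00606 to 0.022 in those fits. The other transmembrane collagens did not pass. COL13A1, found at cell contacts, was at 9.62 ± 0.847 CPM against 10.1 ± 0.604 CPM, COL25A1 was below 1 CPM, and COL23A1 had 0 counts in every control library and at most 4 in a STING library.

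**Figure D2:**
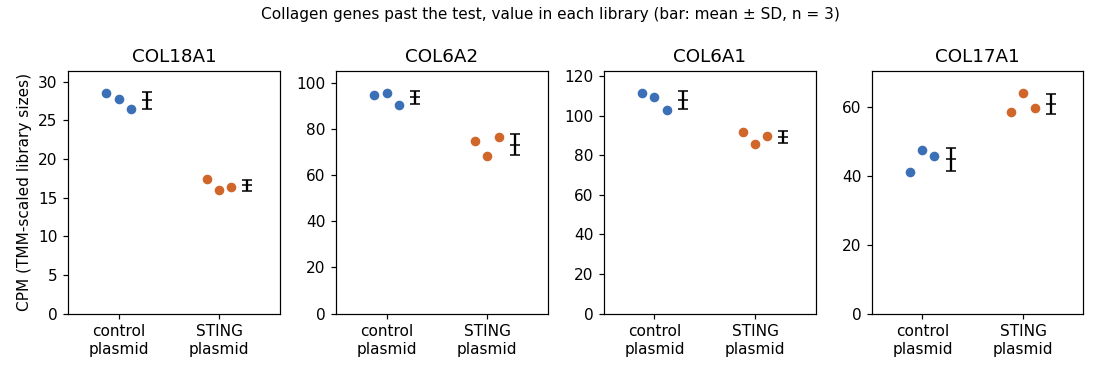
CPM of the 4 collagen genes that passed the test, 1 panel per gene with an axis from 0, 1 point per library, with the group mean ± SD beside the points (n = 3). In all 4 panels the control and STING points do not overlap, and the gap is widest for COL18A1 (1.52 times) and smallest for COL6A1 (1.12 times).

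The 3 genes that fell lie on the long arm of chromosome 21 and read in the same direction, on the plus strand (GRCh38). COL18A1 spans chr21:45405165-45513720, COL6A1 chr21:45981769-46005050 and COL6A2 chr21:46098112-46132848. From the start of COL18A1 to the end of COL6A2 are 727683 bases, with 468049 bases between COL18A1 and COL6A1 and 93062 between COL6A1 and COL6A2. Their neighbours were examined at the nearest tested gene on each side. SLC19A1, a folate carrier gene that overlaps the end of COL18A1 on the opposite strand, was at 17.2 ± 0.38 CPM against 16.6 ± 1.65 CPM (edgeR adjusted p = 0.888). Because no source used here says whether counting used strand, both genes were also summed: the sum fell from 44.8 ± 1.34 to 33.2 ± 1.54 CPM (log2 fold change -0.43, edgeR adjusted p = 0.00232).

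The other neighbours did not pass the test. LINC01694, a noncoding RNA gene 79934 bases beyond COL18A1, was higher in all STING libraries, at 1.37 ± 0.0486 against 2.21 ± 0.186 CPM (log2 fold change 0.69, edgeR adjusted p = 0.128). LINC00315, PCBP3 and FTCD were all below 1 CPM. FTCD ends 3414 bases beyond COL6A2 and was at 0.402 against 0.490 CPM. COL17A1 lies on the minus strand of chromosome 10 (chr10:104031286-104085880), between SLK, a protein kinase gene (148 ± 3.84 against 155 ± 6.47 CPM, edgeR adjusted p = 0.648), and SFR1, a DNA repair gene (11.6 ± 0.988 against 12.9 ± 1.70 CPM, edgeR adjusted p = 0.578).

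The 250 bases before the annotated start are printed for the genes past the test that have an entry among the RefSeq promoters (GRCh38.p14), to show how unlike they are. Capitals mark a TATA box with the letters TATAAA, a box with the letters CCAAT, a GC box with the letters GGGCGG, a SMAD box with the letters CAGAC, an AP-1 site, an NF-kB site or an interferon-stimulated response element, each searched on both strands, and neighbouring matches run together:
COL18A1 (first start): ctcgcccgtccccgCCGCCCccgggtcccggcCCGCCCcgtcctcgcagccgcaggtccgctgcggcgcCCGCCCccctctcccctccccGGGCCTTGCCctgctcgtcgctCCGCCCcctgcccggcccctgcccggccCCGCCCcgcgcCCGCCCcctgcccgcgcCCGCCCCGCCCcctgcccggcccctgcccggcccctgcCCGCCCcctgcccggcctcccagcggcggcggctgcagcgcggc
COL18A1 (second start): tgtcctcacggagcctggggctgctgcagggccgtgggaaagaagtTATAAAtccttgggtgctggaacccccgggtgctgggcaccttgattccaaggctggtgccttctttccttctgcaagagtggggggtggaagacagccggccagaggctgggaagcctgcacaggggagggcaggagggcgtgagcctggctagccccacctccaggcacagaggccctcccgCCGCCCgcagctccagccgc
COL6A2: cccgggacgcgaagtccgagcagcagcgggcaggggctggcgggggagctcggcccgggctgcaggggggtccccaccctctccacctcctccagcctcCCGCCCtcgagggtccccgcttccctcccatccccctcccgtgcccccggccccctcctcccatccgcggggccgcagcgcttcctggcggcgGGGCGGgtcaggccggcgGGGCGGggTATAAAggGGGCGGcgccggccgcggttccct
COL17A1: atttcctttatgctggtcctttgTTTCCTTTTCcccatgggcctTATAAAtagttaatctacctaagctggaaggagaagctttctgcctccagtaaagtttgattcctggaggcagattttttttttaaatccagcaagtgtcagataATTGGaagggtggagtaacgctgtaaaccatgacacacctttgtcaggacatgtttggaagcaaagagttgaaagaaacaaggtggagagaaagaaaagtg
They cover chr21:45404915-45405164 and chr21:45455272-45455521 for COL18A1, chr21:46097862-46098111 for COL6A2, all on the plus strand, and chr10:104085881-104086130 on the minus strand for COL17A1. The window before the first COL18A1 start has a GC content of 88.4% with 9 GC boxes and 1 match to the NF-kB letters, and that before the second start 66.4% with 1 TATA box and 1 GC box. The COL6A2 window has 79.6% with 1 TATA box and 4 GC boxes. The COL17A1 window is the AT-rich one, with 40.4%, 1 match to the TATA box letters, 1 CCAAT box and 1 match to the response element. There and before the second COL18A1 start the TATAAA letters lie far from the annotated start, whereas in the COL6A2 window they lie close to it.

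Promoter entries matched 31 of the 43 collagen genes, with 42 windows in all. The GC box letters stood in 57.1% of the collagen windows and in 42.6% of all 35116 windows of this length, and the TATA box letters in 19.0% and 10.7%. The NF-kB letters stood in 9.52% of the collagen windows and 5.07% of all, the CCAAT letters in 26.2% and 32.0%, and the SMAD letters in 38.1% and 38.0%. The AP-1 letters stood in 2.38% and 6.57%, and those of the response element in 2.38% and 3.02%. The median GC content was 64.4% in the collagen windows and 58.0% in all, and the letters of a GC box occur more often in GC-rich sequence. These matches describe the sequence and show no binding.

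The fibrillar collagens hold the most abundant member of the family. None of the 10 tested members passed the edgeR test. At an unadjusted p under 0.05 there were 1 higher (COL3A1, near the 7.17% of all tested genes) and 3 lower (against 7.2%). COL3A1 passed the filter on low counts only through the STING group. DESeq2 called COL1A2 and COL5A2 as lower, and limma-voom COL5A2. COL1A2 had 1114, 1050 and 1010 CPM in the control libraries and 881, 772 and 934 CPM in the STING libraries (log2 fold change -0.30, SE 0.065). All STING libraries were below all control libraries, and the edgeR adjusted p was 0.0516, just outside the threshold. Without STING library 3 COL1A2 passed, with an edgeR adjusted p of 0.0163, and without STING library 1 it was 0.237. COL5A2 had 224, 211 and 207 CPM against 176, 188 and 193 CPM (log2 fold change -0.20, edgeR adjusted p = 0.0506), again without overlap.

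COL5A1, the partner chain of COL5A2, varied little within each group, at 126 ± 1.32 CPM against 116 ± 1.87 CPM, without overlap. Its log2 fold change was -0.11 (edgeR unadjusted p = 0.0201, adjusted p = 0.228). COL11A1, a fibrillar chain best known from cartilage, was at 39.5 ± 3.88 against 39.0 ± 3.82 CPM, and COL27A1, also a cartilage collagen, at 15.6 ± 1.67 against 13.8 ± 1.41 CPM. COL1A1 was at 8.64 ± 0.734 against 9.22 ± 0.55 CPM, with overlapping groups (edgeR adjusted p = 0.8). COL24A1 and COL11A2 were near 2 CPM in both groups, and COL24A1 was higher in all STING libraries (edgeR adjusted p = 0.623).

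Type IV chains pair by gene: COL4A1 with COL4A2 in most basement membranes, COL4A3 with COL4A4 and COL4A5, and COL4A5 with COL4A6 in special ones. Each of the 3 gene pairs is arranged head to head, and the annotated starts of COL4A1 and COL4A2 are 126 bases apart, those of COL4A4 and COL4A3 418 and those of COL4A6 and COL4A5 379. All 6 genes were well counted and none passed the edgeR test. At an unadjusted p under 0.05, which 7.17% of all tested genes reached as higher and 7.2% as lower, there were 0 higher and 2 lower, COL4A1 and COL4A2, and DESeq2 called both. COL4A2 had 210, 202 and 196 CPM in the control libraries and 184, 164 and 180 CPM in the STING libraries (log2 fold change -0.20, edgeR adjusted p = 0.0577). COL4A1 had 91.0, 91.3 and 85.7 CPM against 81.3, 78.1 and 79.7 CPM (log2 fold change -0.16, edgeR adjusted p = 0.107). Neither gene's groups overlapped. Since their gene models overlap at the start, the sum of both was tested as well and gave an edgeR adjusted p of 0.0552.

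COL4A5 was at 57.2 ± 3.73 against 52.6 ± 1.52 CPM (edgeR adjusted p = 0.357), with overlap. COL4A6, COL4A4 and COL4A3 lay between 3 and 9 CPM in the control group: COL4A6 at 7.99 against 8.08 CPM, COL4A4 at 5.81 against 5.60 CPM and COL4A3 at 3.10 against 3.55 CPM. None of these passed the test. COL4A3 had a log2 fold change of 0.19, but -0.05 when summed with MFF-DT, a noncoding gene that overlaps it.

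Of the fibril associated collagens, which bind the surface of fibrils, 7 of 9 were tested and none passed in edgeR. At an unadjusted p under 0.05 there were 0 higher and 3 lower of these 7, beside 7.17% and 7.2% of all tested genes, and DESeq2 called COL14A1. COL12A1, next to COL5A2 in level per length, was at 261 ± 7.05 CPM in the control group and 262 ± 20.5 CPM in the STING group. Its log2 fold change was 0.01 with an SE of 0.054. COL14A1, a relative of COL12A1, had 7.32, 8.31 and 8.19 CPM in the control libraries and 4.66, 5.25 and 6.50 CPM in the STING libraries. The groups did not overlap, and the estimate was -0.54 on the log2 scale with an SE of 0.14 (edgeR adjusted p = 0.0706).

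COL9A3, a chain of the type IX collagen of cartilage, was at 2.70 ± 0.228 against 1.98 ± 0.188 CPM, without overlap (edgeR adjusted p = 0.304). COL16A1 was at 4.47 ± 0.146 against 5.12 ± 0.603 CPM, higher in all STING libraries (edgeR adjusted p = 0.618). COL21A1 was at 3.05 ± 0.623 against 3.15 ± 0.833 CPM, with overlap. COL19A1 was below 1 CPM in all libraries, at 0.862 ± 0.0867 against 0.423 ± 0.307 CPM (edgeR adjusted p = 0.291). STING libraries 1 and 2 were low, with 21 and 17 counts, and STING library 3 had 59, within the range of the control libraries. COL7A1, which forms anchoring fibrils, was at 12.2 ± 0.334 CPM in the control group, with a log2 fold change of -0.02 (SE 0.094). COL8A1, a short chain collagen of sheet-like networks, was at 12.2 ± 0.40 against 12.5 ± 0.607 CPM.

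**Figure D3:**
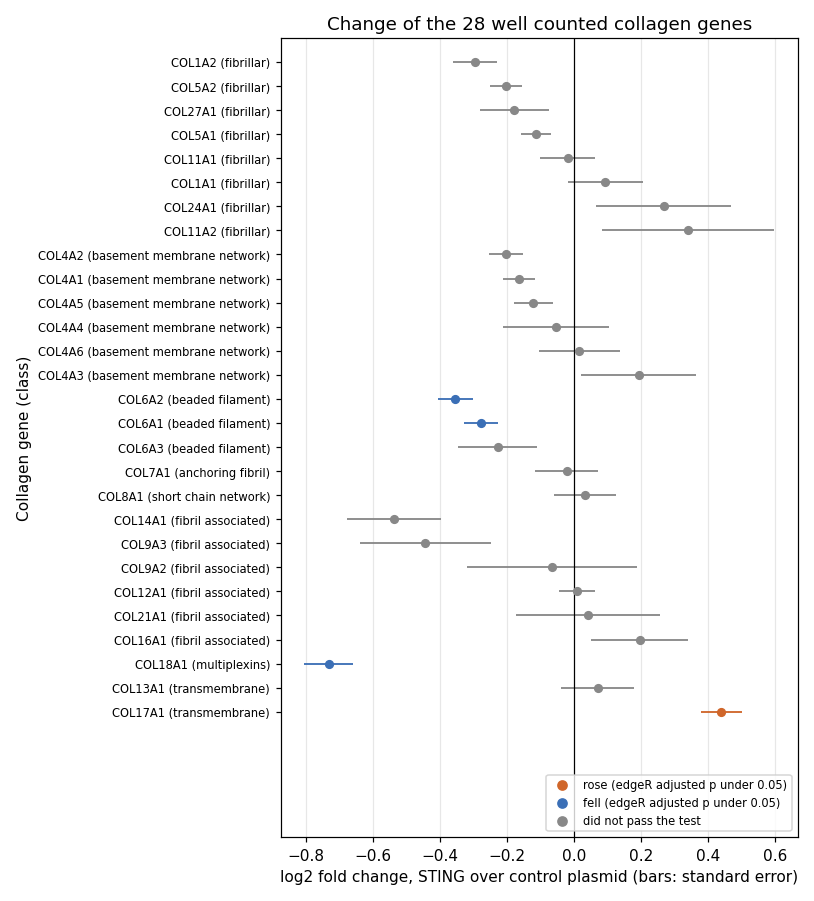
Log2 fold change (STING over control) with its standard error for the 28 well counted collagen genes, grouped by class, coloured by whether the gene passed the edgeR test. COL18A1 stands lowest at -0.73 and COL17A1 highest at 0.44. Of the 28 estimates 17 lie below 0, beside 49.0% of all tested genes with a mean of at least 1 CPM.

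Chains of 1 collagen type were then set against each other. This asks whether the balance of partner chains differed between groups, as log2 ratios of CPM in each library, for 8 pairs with both genes well counted. The exact permutation test of 3 against 3 libraries cannot go below p = 0.1, so no pair could pass, and the adjusted values ran from 0.4 to 0.5. The ratio of COL1A2 to COL1A1 in FPKM was 106, 112 and 91.6 in the control libraries and 85.3, 67.9 and 81.9 in the STING libraries, so the groups did not overlap. The log2 ratio of COL1A1 to COL1A2 was higher by 0.39 in the STING group (exact permutation p = 0.1, adjusted 0.4).

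The ratio of COL5A1 to COL5A2 also did not overlap, with 0.386 ± 0.0152 against 0.411 ± 0.0228 in FPKM (exact permutation p = 0.1, adjusted 0.4). In both of these pairs, named because their groups did not overlap, the share of the chain with the lower level per length was higher in the STING group. In the pair of COL6A1 and COL6A2 it was the share of the chain with the higher level, COL6A1, with overlapping groups. For COL6A1 to COL6A2 the ratio was 1.16 ± 0.0203 against 1.22 ± 0.0447 (exact permutation p = 0.2), and for COL4A1 to COL4A2 0.579 ± 0.0131 against 0.596 ± 0.0264 (exact permutation p = 0.5). COL4A5 exceeded COL4A6 by 5.66 ± 0.393 times in FPKM in the control group and 5.12 ± 0.345 times in the STING group. The pairs of COL9A2 with COL9A3 and of COL11A1 with COL11A2 overlapped, and each includes a gene near 2 CPM.

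**Figure D4:**
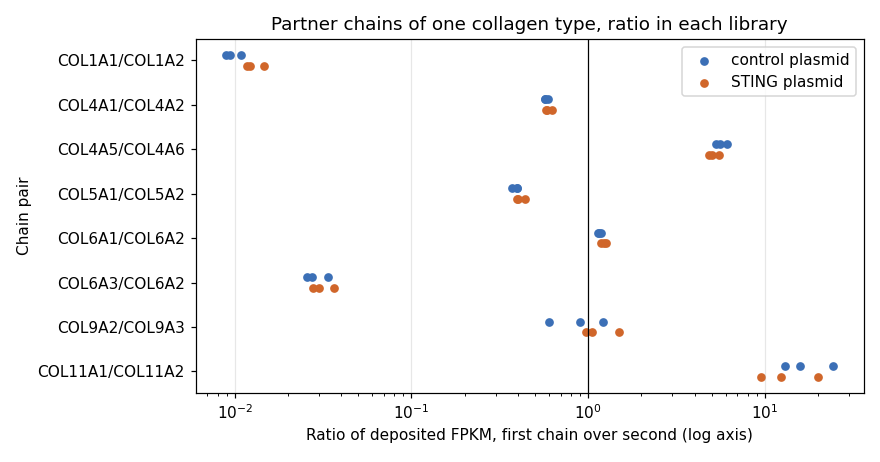
Ratio of deposited FPKM of the partner chains of 8 pairs on a log axis, 1 point per library (3 control, 3 STING). The ratio of COL1A1 to COL1A2 is the lowest of the pairs and lies higher in the 3 STING libraries than in the 3 control libraries.

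Summed over the family, collagens took 0.248%, 0.240% and 0.234% of all counts in control libraries 1 to 3 and 0.212%, 0.207% and 0.224% in STING libraries 1 to 3. Each STING library was below each control library. The summed FPKM was 224 ± 9.68 in the control group and 197 ± 7.99 in the STING group, and 134 ± 4.24 against 123 ± 3.42 without COL1A2. The share of COL1A2 in the sum was 40.1% ± 0.688 against 37.5% ± 2.07. These sums are set largely by COL1A2 and a few other genes, and no test is given for them.

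COL3A1 had the largest estimate of all collagens, on very few counts. Control libraries 1 to 3 held 5, 12 and 0 counts of it and STING libraries 1 to 3 held 19, 52 and 106, and it passed the filter only through the STING group. The groups did not overlap, but the STING libraries differed widely among themselves. The fitted log2 fold change of 3.27 had an SE of 0.97 and an edgeR adjusted p of 0.166. COL3A1 did not pass the test under any alternative that kept it.

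Of the fibroblast markers listed, LUM and DCN were highest in STING libraries 2 and 3 too. LUM, a proteoglycan of collagen fibrils, had 12, 12 and 4 counts in the control group and 8, 44 and 48 in the STING group. DCN, a similar proteoglycan, had 0 counts in all control libraries and 0, 23 and 23 in those with the STING plasmid. TCF21 had at most 4 counts anywhere, and PDGFRA was highest in control library 1, at 46.0 CPM. POSTN, chosen after its values were seen, had 0 counts in all control libraries and 0, 19 and 20 in the STING libraries. Some markers of other cell types also varied widely between libraries, and others varied less. The epithelial marker EPCAM had 20, 20 and 9 counts in the control libraries and 12, 72 and 11 in the STING libraries. The blood marker PTPRC had 156, 541 and 352 against 72, 191 and 234. Among those that varied less, the blood marker CD14 had 78, 92 and 71 against 98, 59 and 105. CD3E, also a blood marker, had 21, 39 and 28 against 19, 39 and 38.

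Of the 4 fibroblast markers listed, 2 passed the filter and 0 passed the test. Their summed level ranged from 37.0 to 46.1 CPM in the control group and from 40.0 to 45.5 CPM in the STING group, nearly all of it PDGFRA, which glioma cells also express. Without PDGFRA it ranged from 0.0529 to 0.226 CPM in the control group and from 0.156 to 0.987 CPM in the STING group. The part of these genes' source in the COL3A1 counts was not tested.

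**Figure D5:**
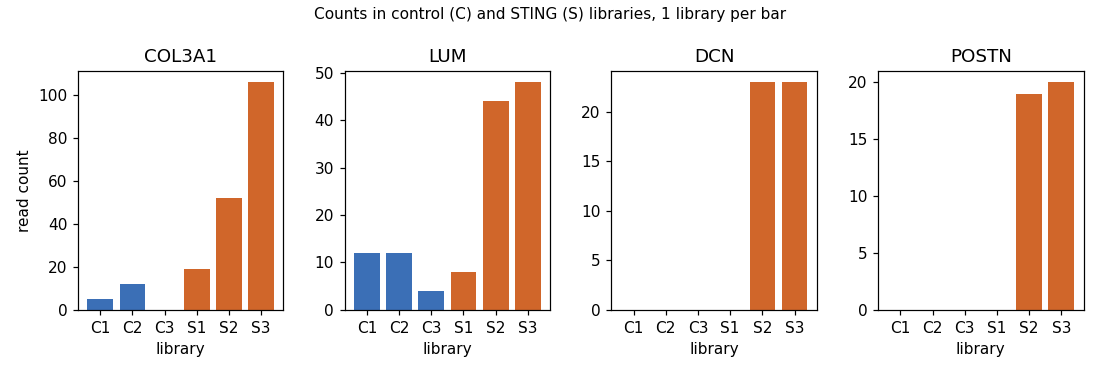
Counts of COL3A1 and of the fibroblast genes LUM, DCN and POSTN in each of the 6 libraries. All 4 are highest in STING libraries 2 and 3, where COL3A1 reaches 52 and 106 counts. POSTN was not on the list of fibroblast markers and was chosen after its values were seen. The listed markers PDGFRA, highest in control library 1, and TCF21, with at most 4 counts in a library, are not drawn.

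The other genes below 1 CPM did not pass the test. COL5A3 had 18, 17 and 19 counts in the control libraries and 34, 0 and 17 in the STING libraries. COL10A1, the collagen of hypertrophic cartilage, had 22, 33 and 34 against 15, 18 and 34 counts, and COL8A2 40, 46 and 29 against 31, 45 and 73. COL15A1, COL25A1 and COL28A1 had at most 48 counts in a library, and all their groups overlapped. At these depths differences smaller than the spread of the counts were not detectable.

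Collagen chains need a set of enzymes, chaperones, proteases and receptors, and 86 such genes were listed in 6 groups. Of these 83 were tested, 0 rose, 8 fell and 75 did not pass the edgeR test, against 0.604% higher and 0.89% lower of all tested genes. At an unadjusted p under 0.05, 6 of the 83 were higher and 23 lower, against 7.17% and 7.2% of all tested genes, so the 6 are near the background. DESeq2 called 1 higher and 14 lower, against 3.24% and 4.26% of the 12310 genes with an adjusted p in that tool. The median log2 fold change was -0.02 over the 83 genes. Among the 15 enzymes that modify prolines and lysines of the chains, 1 fell and 14 had a negative estimate (49.8% of all tested genes), with a median of -0.12. COLGALT1, which adds galactose to hydroxylysine, fell from 293 ± 6.47 to 253 ± 17.1 CPM (edgeR adjusted p = 0.0495). PLOD1, a lysyl hydroxylase, was at 219 ± 6.25 against 189 ± 13.1 CPM (edgeR adjusted p = 0.0516), and CRTAP, part of a prolyl hydroxylation complex, at 370 ± 4.11 against 332 ± 17.1 CPM (edgeR adjusted p = 0.107).

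None of the 17 genes for chaperones and export passed the edgeR test, and 2 were higher and 3 lower at an unadjusted p under 0.05, beside 7.17% and 7.2% of all tested genes. DESeq2 called FKBP14 as higher and SERPINH1 and FKBP9 as lower. The collagen chaperone SERPINH1 was at 77.6 ± 1.86 CPM in the control group and 66.6 ± 6.65 CPM in the STING group (edgeR adjusted p = 0.106). FKBP14, a prolyl isomerase of the endoplasmic reticulum, was at 64.4 ± 3.59 against 74.1 ± 3.50 CPM (edgeR adjusted p = 0.0866). FKBP9, of the same family, was at 149 ± 5.88 against 134 ± 2.34 CPM (edgeR adjusted p = 0.124). Of the 11 tested genes for processing and crosslinking 1 fell, beside 0.89% of all tested genes. BMP1, the protease that removes the end of fibrillar procollagens, fell from 89.5 ± 5.06 to 74.7 ± 5.77 CPM (edgeR adjusted p = 0.044), and the crosslinking enzyme LOXL2 was at 386 ± 5.43 against 334 ± 26.3 CPM (edgeR adjusted p = 0.0587).

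Of the 13 receptors and uptake genes 2 fell and 0 rose, beside 0.89% and 0.604% of all tested genes. At an unadjusted p under 0.05, 3 were lower and 0 higher, beside 7.2% and 7.17% of all tested genes. The median log2 fold change of the 13 was -0.02. MRC2, which takes up collagen fragments, had 63.5, 60.5 and 62.3 CPM in the control libraries and 48.2, 41.2 and 46.9 CPM in the STING libraries (log2 fold change -0.45, SE 0.062, edgeR adjusted p = 0.00221). Its groups did not overlap, and it passed without any of the 6 libraries in turn. DDR1, a receptor kinase that binds collagen, fell from 107 ± 3.28 to 84.5 ± 7.26 CPM (log2 fold change -0.34, edgeR adjusted p = 0.00996) and passed in 4 of the 6 fits that leave out a library. The integrin chain ITGB1 was at 540 ± 6.49 against 500 ± 19.0 CPM (edgeR adjusted p = 0.216).

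Of the 11 tested proteases that degrade collagen 2 fell, beside 0.89% of all tested genes. They were MMP14 (edgeR adjusted p = 0.00469) and MMP2, which MMP14 activates. MMP2 fell from 62.3 ± 1.85 to 51.2 ± 4.26 CPM (edgeR adjusted p = 0.0307), without overlap. CTSB, a lysosomal protease, was at 656 ± 11.8 against 574 ± 33.5 CPM (edgeR adjusted p = 0.0508). At an unadjusted p under 0.05, 4 of the 11 proteases were lower and 3 higher, beside 7.2% and 7.17% of all tested genes. The higher ones are named after their values were seen. The collagenase MMP1 was at 1.87 ± 0.263 against 3.14 ± 0.489 CPM, without overlap (edgeR adjusted p = 0.0804). The collagenase MMP13 was at 1.26 ± 0.172 against 2.01 ± 0.835 CPM, with overlap (edgeR adjusted p = 0.31). The cathepsin CTSK was at 10.2 ± 0.555 against 11.9 ± 0.434 CPM, without overlap (edgeR adjusted p = 0.288).

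Of the 16 genes of the TGF-beta pathway, a main inducer of collagen genes, 2 fell, beside 0.89% of all tested genes. LTBP3, which binds latent TGF-beta, fell from 96.9 ± 4.54 to 75.1 ± 5.31 CPM (edgeR adjusted p = 0.00495), and TGFBI, a matrix protein named for its induction by TGF-beta, from 700 ± 12.7 to 617 ± 17.8 CPM (edgeR adjusted p = 0.0396). MMP14 and LTBP3 each passed in 5 of the 6 fits that leave out a library, whereas COLGALT1, BMP1, MMP2 and TGFBI each passed in 1. The receptor TGFBR2 was at 97.2 ± 1.09 against 108 ± 6.53 CPM (edgeR adjusted p = 0.174).

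The GC content of the genes moved with the groups in part. Per 10% of GC content the log2 level shifted by 0.02, 0.05 and 0.02 in control libraries 1 to 3 and by 0.03, -0.08 and -0.05 in STING libraries 1 to 3, so STING library 1 stood with the control libraries. The GC content of the gene models was 66.9% for COL18A1, 65.3% for COL6A2, 63.6% for COL6A1 and 54.4% for COL17A1, against a median of 48.6% for all tested genes. After a correction for GC content and length in each library all 4 still passed the edgeR test, with log2 fold changes of -0.67 for COL18A1 (adjusted p = 0.000209), -0.29 for COL6A2 (0.00517), -0.20 for COL6A1 (0.0276) and 0.47 for COL17A1 (0.00269). In the same fit COL5A2, COL4A2, COL4A1 and COL14A1 passed as lower too, for 7 lower collagens in all.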

How the data were processed

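Total RNA of 6 libraries, 3 per plasmid, was sequenced after extraction with Trizol and preparation with the Illumina TruSeq RNA kit, per the labels' protocols. Bowtie 0.12.2 is listed in the submitters' processing notes. The counting program, its treatment of strand and of reads that match several collagen genes, and the build are given nowhere in these sources. Per the file headers, the authors deposited whole-number read counts and FPKM values per Ensembl gene. Each gene's deposited FPKM was its count divided by 1 fixed length and a factor per library (median largest deviation 0.082% over 11237 genes). All 43 collagen genes were in GENCODE v29, and 38 of them matched its gene start or gene end, or both, to within 1 base. Coordinates therefore refer to GRCh38.

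Counts were tested in edgeR 4.0.16 (R 4.3.3; filterByExpr with a minimum count of 10, TMM, robust quasi-likelihood fit, two-sided, Benjamini-Hochberg adjustment over all tested genes, threshold 0.05). Changes are STING over control, and CPM use TMM-scaled library sizes. The standard error was taken as the absolute log2 fold change over the square root of F. Members and gene lists were chosen with earlier results of these data known. Named were STING1, all tested collagens, the members of each partner list past the test with at most 3 others of smallest p, and tested genes that overlap or neighbour a changed collagen. The labels give no batch. On simulated counts for this comparison (20886 genes, 50 changed at each fold), edgeR called 30% of the genes changed 1.25-fold, 70% of those changed 1.5-fold, 68% of those changed 2-fold and 94% of those changed 3-fold. Of its calls 5.07% were false. Alternatives were other scalings and filters, DESeq2 1.42.0, limma 3.58.1 (voom, and log2 of FPKM plus 0.1 or 1), a replicate block, a correction for GC content and length (natural splines with 5 degrees of freedom per library), sums with overlapping genes, and each library left out.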

Additional observations from a re-analysis of the deposited data

How the results depend on the processing

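COL18A1 passed the test under all 19 alternatives, with log2 fold changes from -0.77 to -0.43. COL17A1 passed under 16 of 18, COL6A2 under 15 of 18 and COL6A1 under 12 of 18. Lower collagens numbered 3 in the main test, 6 with upper quartile scaling and without a filter, 8 with a filter at 1 CPM and in DESeq2, 7 with the GC and length correction, 1 in each limma fit of log2 FPKM (COL18A1), and 2 to 5 when 1 library was left out. COL1A2 was among them in 6 alternatives of 19, COL5A2 in 7 of 18, COL4A2 in 6 of 19, COL14A1 in 4 of 18 and COL4A1 in 3 of 19. Higher collagens numbered 0 in both FPKM fits. Higher partner genes numbered 1 with total count scaling and in DESeq2, 2 with the 1 CPM filter and 0 to 2 with a library left out. Lower partner genes numbered 5 with total counts, 14 in DESeq2, 0 in both FPKM fits and 2 to 13 with a library left out. Over all genes the main 131 higher and 193 lower became 253 and 142 with total counts, 255 and 390 with the 1 CPM filter, 399 and 525 in DESeq2, 10 and 3 with FPKM + 0.1, 11 and 3 with FPKM + 1, and 34 to 260 and 26 to 481 with a library left out. STING1 did not pass in the FPKM fits (log2 fold changes 0.61 with + 0.1 and 0.55 with + 1).

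The replicate numbers were not taken as pairs in the main test. Same-numbered libraries correlated at 0.334, 0.097 and 0.143 in their deviations, and control library 2 correlated best with STING library 3. Control library 1 correlated at -0.216 with STING libraries 2 and 3. STING library 1 correlated at -0.187 and -0.265 with control libraries 2 and 3. Deviations were taken from each group's mean and cancel within a group, so these negative values are not independent of the 0.334. By the 0.334, replicate 1 of both groups shared a deviation that the main test does not model. With the replicate block the same 4 collagens passed (3 lower, 1 higher), 4 partner genes were lower, and 55 genes were higher and 65 lower in all. With the block and the GC and length correction 1 collagen was lower and 1 higher, with COL6A2 at an edgeR adjusted p of 0.0527 and COL6A1 at 0.14, 2 partner genes were lower, and 32 genes were higher and 43 lower.

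Changes of sign touched only genes that had not passed the test. With the GC and length correction the log2 fold change became 0.056 for COL7A1, -0.035 for COL12A1, -0.0039 for COL21A1 and 0.029 for SLC19A1, and with the block added 0.056, -0.036, -0.012 and 0.022, and 0.0097 for COL9A2. It became 0.0026 for COL11A1, -0.015 for COL15A1 and -0.0073 for COL28A1 with FPKM + 0.1, and 0.0020, -0.0042 and -9.3e-05 with FPKM + 1. It became -0.76 for COL28A1 in voom, -0.048 for COL4A3 summed with its overlapping gene, 0.0073 for COL7A1 and 0.011 for COL11A1 with total counts, and -0.00017 for COL12A1 and -0.0051 for COL15A1 with the upper quartile. Leaving out 1 library gave -0.058 to 0.026 for COL7A1, -0.24 to 0.075 for COL4A4, -0.082 to 0.098 for COL4A6, -0.038 to 0.071 for COL12A1, -0.19 to 0.21 for COL21A1, -0.29 to 0.12 for COL9A2, -0.10 to 0.042 for COL11A1, -1.13 to 0.44 for COL5A3, -0.42 to 0.58 for COL15A1, -0.47 to 1.03 for COL28A1, -0.0086 to 0.059 for COL8A1, -0.093 to 0.55 for COL8A2, -0.0014 to 0.12 for COL13A1, -0.49 to 1.17 for PCBP3, -0.12 to 0.017 for SLC19A1 and -0.63 to 0.083 for LINC00315. The cause was not tested.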
